A study of Homo sapiens with 6 samples.

Results

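The nuclear-encoded subunits of the 5 respiratory complexes were examined in SACC-83, a cell line labelled as salivary adenoid cystic carcinoma. Genes were taken by symbol: numbered NDUFA, NDUFB, NDUFC, NDUFS and NDUFV genes, SDHA to SDHD, UQCR genes and CYC1, COX4 to COX8 genes, and ATP5F1, ATP5M and ATP5P genes, each with an Ensembl identifier. NDUFAB1, also a complex I subunit, has no such number and is not among the members. It was counted with the electron carrier and supercomplex genes. This gave 89 of the 27328 loci in the deposited table: 37 genes of complex I, 4 of complex II, 10 of complex III, 19 of complex IV and 19 of complex V, with NDUFA4 and NDUFA4L2 counted in complex IV. The series sequenced purified mRNA from 3 samples with an empty vector (genotype label WT) and 3 with overexpression of circMYBL1, a circular RNA of the MYBL1 gene. The genotype labels of overexpression replicates 1, 2 and 3 read circMYBL1, circMYBL2 and circMYBL3 overexpression, while the sample titles and the design text place all 3 in a single circMYBL1 overexpression group, which is how they were used. The labels do not say what a replicate number stands for. They also do not name separate cultures, so the tests weigh differences only against the spread among these 6 samples, which may be technical.

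The respiratory chain sits in the inner mitochondrial membrane. Complexes I and II pass electrons from NADH and succinate to ubiquinone, complex III passes them on to cytochrome c, and complex IV reduces oxygen. Complexes I, III and IV pump protons, and complex V, the ATP synthase, uses the proton gradient to make ATP. All complexes but complex II also contain subunits encoded by mitochondrial DNA, so their assembly draws on mRNAs from both genomes. The transcription factors NRF1, GABP (an ETS-family factor) and YY1 are known regulators of many nuclear subunit genes.

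To show the kind of letters found upstream of the members, 4 promoter stretches are printed, each from another complex and each with a match lying outside annotated exons. RefSeq promoters (GRCh38.p14, 250 bases before to 50 after the gene start) matched 69 of the 89 members. They were searched on both strands for the NRF1 palindrome (the capitals in NDUFB4 below), an ETS motif (CCGGAAG), a YY1 motif and CCAAT. Sequences run 5′ to 3′ on the gene's strand; capitals mark the NRF1 motif in NDUFB4 and the ETS motif, in either orientation, in the others.

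NDUFB4 (chr3:120596086-120596308, plus strand): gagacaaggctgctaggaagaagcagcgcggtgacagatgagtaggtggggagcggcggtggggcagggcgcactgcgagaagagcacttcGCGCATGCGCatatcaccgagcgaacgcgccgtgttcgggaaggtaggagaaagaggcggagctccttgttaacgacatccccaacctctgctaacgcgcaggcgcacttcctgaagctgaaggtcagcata

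UQCR11 (chr19:1605491-1605712, minus strand): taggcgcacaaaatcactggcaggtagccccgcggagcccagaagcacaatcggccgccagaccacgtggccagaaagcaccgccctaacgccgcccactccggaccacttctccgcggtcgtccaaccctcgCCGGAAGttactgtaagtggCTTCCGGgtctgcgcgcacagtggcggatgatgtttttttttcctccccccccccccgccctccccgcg

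COX5B (chr2:97645812-97646039, plus strand): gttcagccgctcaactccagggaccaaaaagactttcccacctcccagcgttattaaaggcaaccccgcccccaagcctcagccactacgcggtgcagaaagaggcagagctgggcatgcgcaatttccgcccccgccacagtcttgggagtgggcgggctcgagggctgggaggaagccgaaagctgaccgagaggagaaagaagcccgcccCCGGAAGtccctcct

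ATP5PD (chr17:75046986-75047183, minus strand): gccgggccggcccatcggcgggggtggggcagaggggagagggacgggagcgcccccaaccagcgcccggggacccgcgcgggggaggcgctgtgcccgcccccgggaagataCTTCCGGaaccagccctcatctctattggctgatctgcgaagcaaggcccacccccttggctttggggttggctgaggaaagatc

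The ETS letters were present in 20 of the 69 member promoters (29%), against 10.7% of 27305 promoters of the same length. The members holding them included SDHB, SDHD, NDUFS1, COX4I1 and COX5B. The NRF1 letters were present in 4 (5.8%, against 1.36%), namely NDUFA8, NDUFB4, SDHD and ATP5F1C. The YY1 letters were also present in 4 (5.8%, against 0.916%), in NDUFA9, NDUFS4, SDHB and UQCRC1. CCAAT was present in 24 (34.8%, against 35.7%). A match is a description of letters and not a binding site. The 4 genes shown had unequal levels: NDUFB4 ranged from 88.9 to 108 FPKM (fragments scaled by gene length and library total) over the 6 libraries, UQCR11 from 27.2 to 38.9, COX5B from 60.7 to 82.0 and ATP5PD from 75.3 to 104.

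The libraries differed by replicate number before any group comparison. The first principal component of all genes tested held 74.5% of the variance and placed vector replicate 2 and overexpression replicate 2 apart from the other 4 libraries. The row of MYBL1, the host gene of the overexpressed circle, which cannot tell circular from linear reads, was listed at 7.15 to 10.3 FPKM in the vector libraries and at 359, 44.0 and 2025 FPKM in overexpression replicates 1, 2 and 3. Of 9 epithelial markers, 8 averaged at least 1 FPKM, with summed levels of 2095 to 2286 in vector and 2184 to 2699 in overexpression libraries. Of 5 markers of adenoid cystic carcinoma, MYBL1 alone averaged at least 1 FPKM and KIT was listed at 0 throughout. The leukocyte genes PTPRC and CD3E, the endothelial gene KDR, the fibroblast gene COL1A2 and the muscle gene MYOD1 were listed at 0 in all 6 libraries. Other genes of these lists were present: TNNT1 (muscle) at 22.6 to 51.1 FPKM, CD68 (leukocyte) at 6.49 to 10.8, COL1A1 (fibroblast) at 2.95 to 11.1, and PECAM1 (endothelial) at 1.27 and 0.985 in the libraries numbered 2 and at most 0.0745 in the others. TNNT1 and COL1A1 were also highest in both libraries numbered 2, and the part of any of these in the member differences was not tested. Among the epithelial markers, KRT5 was highest in the libraries numbered 2 (412 and 347 FPKM, against 94.9 to 142 in the others). So were CDH1 (21.3 and 20.1), KRT14 (41.1 and 37.5) and TP63 (33.7 and 25.1). KRT7 (234 and 304, against 428 to 679) and KRT8 (741 and 877) were lowest in them, and EPCAM, KRT18 and KRT19 were neither. Of the myoepithelial markers, ACTA2 (7.24 and 8.02) and MYLK (2.86 and 2.60) were highest in both. MYH11 was too, at 0.237 FPKM or less, and CNN1 was not. The part of these in the member differences was not tested either. Read depth is not given by FPKM values, and in bulk RNA fewer cells of a type and less RNA per cell cannot be told apart.

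Most members were well expressed. Of the 89, 81 reached 1 FPKM or more in 3 or more libraries and were tested: 36 of complex I, all 4 of complex II, all 10 of complex III, 14 of 19 of complex IV and 17 of 19 of complex V. The mean over the 6 libraries was at least 10 FPKM for 74 members and at least 100 FPKM for 12. FPKM is scaled by gene length, but the lengths and the read assignment used are not given. Levels of different genes can therefore be compared only roughly. In the vector libraries the highest level was that of COX6A1 (324 ± 16.7 FPKM, SD, n = 3), followed by ATP5F1B (306 ± 48.8), the catalytic β subunit of ATP synthase, and COX4I1 (263 ± 25.01), a regulatory subunit of cytochrome c oxidase. ATP5F1B did not separate from COX6A1 or from COX4I1 beyond the spread. COX8A (222 ± 25.8) and COX7B (222 ± 44.3) came next, then NDUFS5 of complex I (214 ± 31.0), ATP5MF (200 ± 36.2) and UQCRH of complex III (198 ± 23.7).

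The paralogues of complex IV subunits were split between a highly expressed and a scarce form. COX4I2, the hypoxia- and lung-linked partner of COX4I1, was listed at 0 in 4 libraries and reached at most 0.0689 FPKM. COX6A2, the heart and muscle partner of COX6A1 (309 to 389 FPKM), and COX7B2, the partner of COX7B, were listed at 0 in all 6 libraries. COX8C was listed above 0 in vector replicate 2 only (0.0915 FPKM), against 195 to 302 FPKM for COX8A. COX7A1, the muscle form, was present at 0.246 to 1.02 FPKM, against 68.6 to 105 for COX7A2. NDUFA4L2 lay between 0.227 and 1.33 FPKM, and NDUFA4 between 47.2 and 59.6. In complex III, UQCRHL lay between 1.13 and 1.71 FPKM and UQCRH, of near-identical sequence, between 175 and 223, so the split of reads within that pair is uncertain. COX6B2, described as a testis form, passed the expression filter with up to 6.82 FPKM, as did NDUFA4L2 and UQCRHL at their lower levels. The other members that were not tested were the readthrough genes NDUFC2-KCTD14 (listed at 3.55 FPKM in vector replicate 1, 0.741 in overexpression replicate 3 and 0 elsewhere) and ATP5MF-PTCD1 (0 to 0.555), and ATP5MGL (0 to 0.531).

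**Figure D1:**
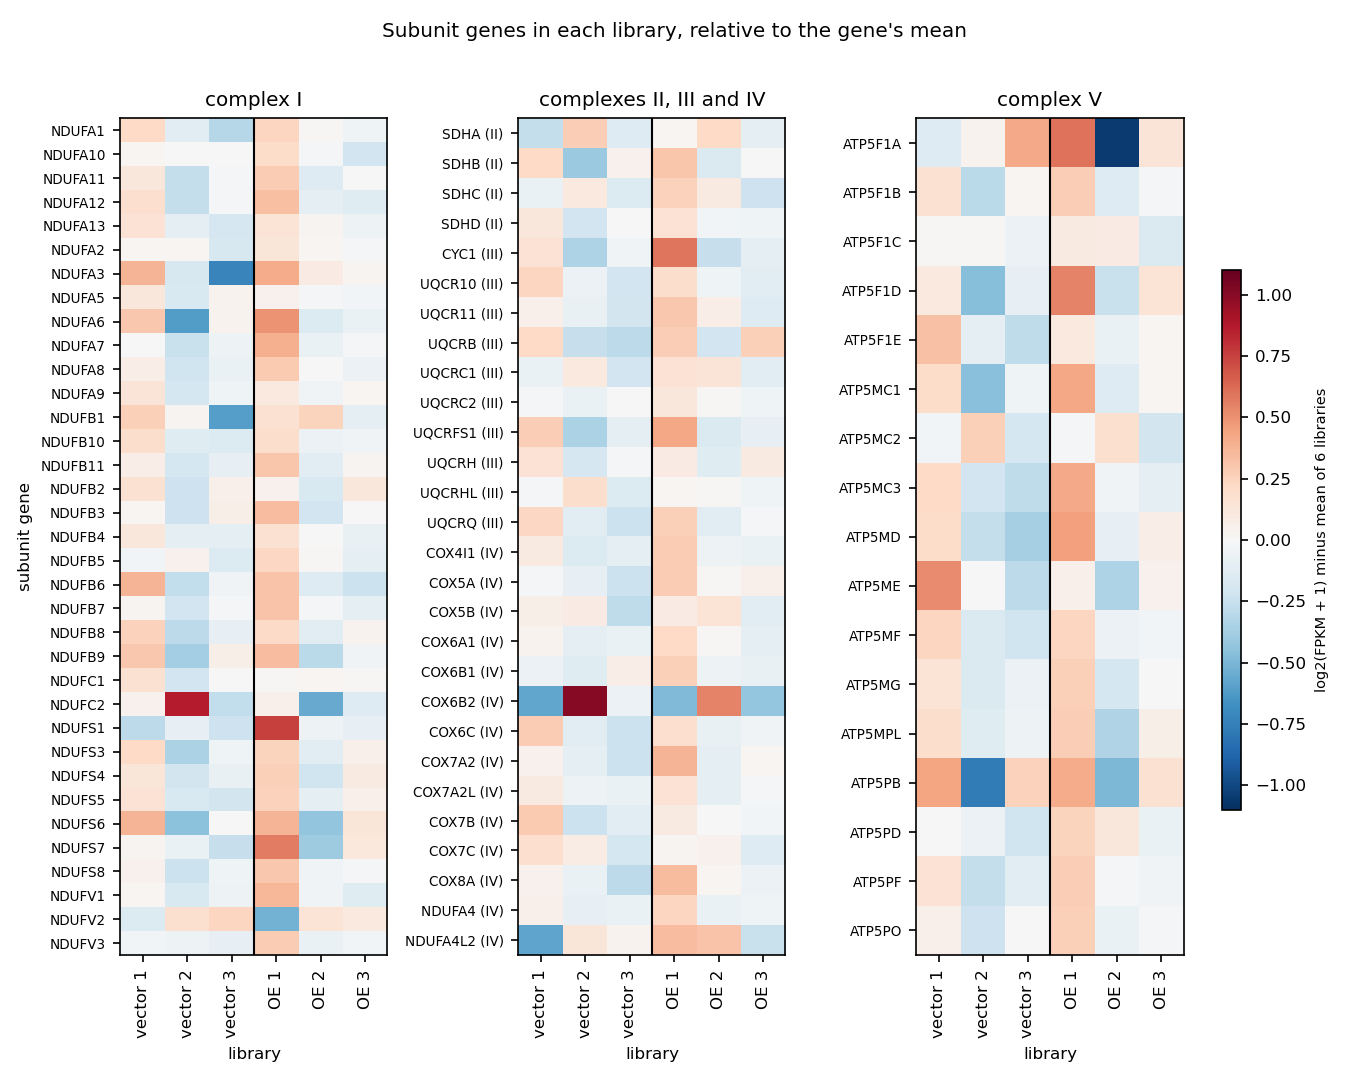
Colour gives each tested subunit gene's (1 not shown) log2(FPKM + 1) minus its mean over the 6 libraries (columns; OE, circMYBL1 overexpression; black line, border between groups), with the complex in brackets in the middle panel. The columns of the libraries numbered 1 are mostly red, and COX6B2, NDUFV2, NDUFC2, NDUFS1 and ATP5F1A break the pattern of their complexes.

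Between overexpression and vector, no subunit gene of any complex passed the test. The members were on average slightly higher in the overexpression libraries, with a median log2 fold change of 0.08 on the log2(FPKM + 1) scale against 0.03 over all 12064 genes tested. By limma with Benjamini-Hochberg adjustment over all genes, 0 of 81 members were called at an adjusted p under 0.05 (background 0%), and 0 had an unadjusted p under 0.05 (background 0.539%). With the replicate number as a block, 0 of 81 were called (background 0.0995%), the smallest adjusted p was 0.521, and 7 had an unadjusted p under 0.05 against 868 of 12064 genes (7.19%). Those 7 were NDUFA3, NDUFS1, COX5A, COX8A, ATP5F1D, ATP5MD and ATP5PD, named because of these values. The average was higher in overexpression for 71 of the 81 members (background 58.1%), and all 3 replicate numbers had the overexpression library above the vector library for 29 members (35.8%, background 16.5%). In the opposite direction, NDUFV2 alone was lower within all 3 numbers (background 11.9%). COX5A was the 1 member with every overexpression library above every vector library (background 2.5%), and 0 members had the reverse (background 0.845%).

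The median offset lay between 0.07 and 0.10 in all 5 complexes and moved with single libraries. The median log2 fold change was 0.09 in complex I (32 of 36 members higher), 0.09 in complex II (4 of 4), 0.10 in complex III (9 of 10), 0.08 in complex IV (12 of 14) and 0.07 in complex V (14 of 17). Within complex I it was 0.09 over the NADH-oxidising N module, 0.12 over the ubiquinone-reducing Q module and 0.09 over the remaining subunits. Within replicate numbers 1, 2 and 3 the member median was 0.10, 0.08 and 0.06, against 0.06, 0.04 and -0.03 over all genes. Overexpression replicate 1 held the highest value of 56 of the 81 members (69.1%), against 25.7% of all genes tested. Without that library the member median was -0.01, and it was 0.17 without vector replicate 1 and 0.04 without vector replicate 2. Without the libraries numbered 1 in both groups it was 0.07, and without those numbered 2 it was 0.09. The member median exceeded that of all genes by 0.06 with all 6 libraries, while the difference was -0.04 without overexpression replicate 1 and -0.00 without vector replicate 2. It was 0.06 without the libraries numbered 1 in both groups.

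**Figure D2:**
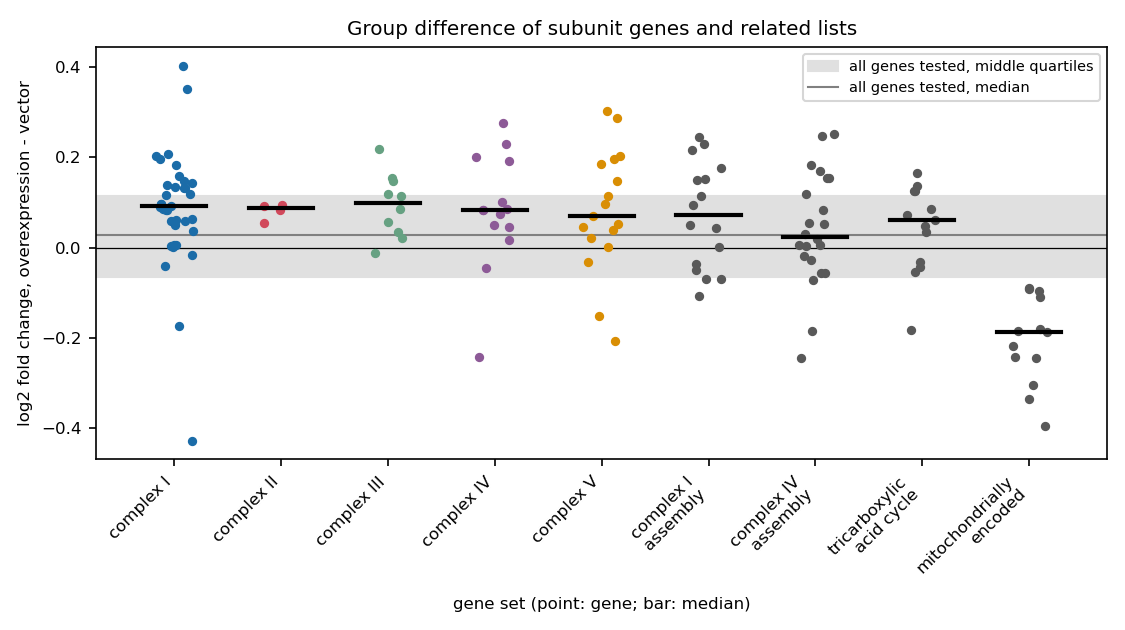
Each point is a gene's log2 fold change of FPKM + 1, overexpression minus vector (y axis), by complex and for 4 related gene lists (x axis); black bars are list medians, and the grey line and band are the median and middle quartiles of all genes tested. The medians of the 5 complexes lie between 0.07 and 0.10, and the 13 mitochondrially encoded mRNAs all lie below 0.

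In complex I, the electron path runs from the flavin site of NDUFV1 through iron-sulphur clusters, among them that of NDUFS7, towards ubiquinone. NDUFV1 was at 66.7, 58.3 and 63.2 FPKM in vector replicates 1, 2 and 3 and at 85.0, 64.0 and 59.6 in the overexpression replicates. Its log2 fold change was 0.13 ± 0.17 (SE of the fit without the replicate block, here and for the group fold changes below). NDUFS7 was at 27.8, 25.8 and 22.7 in vector and at 40.8, 20.5 and 29.6 in overexpression (0.20 ± 0.25). The ranges of both genes overlapped between the groups.

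NDUFS1, the largest iron-sulphur subunit, had the highest log2 fold change in complex I (0.40 ± 0.25), and this came from one library. Its vector values were 7.30, 8.53 and 7.65 FPKM, and its overexpression values were 16.1, 8.74 and 8.52. Overexpression replicate 1 was thus alone, and replicate 3 lay inside the vector range. With the replicate block its limma adjusted p was 0.670. With the block but without the libraries numbered 2 it was 0.0312 at a log2 fold change of 0.59, the only member call of the group comparison in any alternative. That fit kept only replicates 1 and 3 of each group and was added after seeing the data. The share of all genes called in it is not given here. NDUFC2 had the lowest log2 fold change (-0.43 ± 0.31), with values of 36.5, 65.0 and 28.9 in vector and 36.7, 23.7 and 31.8 in overexpression. Vector replicate 2 alone was high, and NDUFC2 shares 431 exonic bases with NDUFC2-KCTD14, so reads can be split between both.

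In complex II, which is entirely nuclear-encoded and also acts in the tricarboxylic acid cycle, group differences were within the spread of the libraries of a group. SDHA, the flavoprotein that oxidises succinate, averaged 111 ± 22.3 FPKM in vector and 117 ± 13.3 in overexpression (SD, n = 3), and SDHB, its iron-sulphur partner, 64.7 ± 14 and 68.7 ± 11.7. The log2 fold changes were 0.09 ± 0.18 for SDHA, 0.10 ± 0.21 for SDHB and 0.05 ± 0.15 for SDHD, a membrane anchor. With the replicate block the SEs were smaller, at 0.096, 0.095 and 0.093, and the limma adjusted p was 0.843, 0.832 and 0.912. The other anchor, SDHC, had the lowest FPKM of the complex, at 7.85 to 11.3. Its longest annotated transcript has 13566 nucleotides, and the length used for its FPKM is not given.

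In complex III, UQCRC1 and UQCRC2 are the core proteins, while UQCRFS1 (the Rieske protein) and CYC1 carry the redox centres. UQCRC2 was among the steadiest members, at 49.5, 47.4 and 49.7 FPKM in vector and 54.5, 50.1 and 48.1 in overexpression (0.06 ± 0.12). UQCRC1 averaged 85.9 ± 9.85 and 93.1 ± 10.04 FPKM, a log2 fold change of 0.11 ± 0.15. CYC1 was at 82.2, 58.2 and 71.6 in vector and at 111, 61.5 and 68.2 in overexpression (0.15 ± 0.25), with overexpression replicate 1 high. UQCRFS1 averaged 11.8 ± 2.82 and 12.9 ± 3.19 FPKM (0.12 ± 0.23). Among members averaging at least 2 FPKM, the extremes of the complex were UQCRB at 0.22 ± 0.21 and UQCR10 at 0.02 ± 0.17.

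In complex IV, COX5A had the highest log2 fold change (0.23 ± 0.14) among members averaging at least 2 FPKM. Its values were 54.1, 51.6 and 46.4 FPKM in vector and 66.7, 55.3 and 56.9 in overexpression, so the lowest overexpression library lay just above the highest vector library. Its adjusted p with the replicate block was 0.645. COX4I1 averaged 263 ± 25.01 and 283 ± 40.4 FPKM (0.10 ± 0.16), and COX5B 72.3 ± 10.1 and 76.3 ± 7.21 (0.08 ± 0.16). COX6B2 had the lowest log2 fold change (-0.24 ± 0.45).

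In complex V, ATP5F1D, the δ subunit of the central stalk, had the highest log2 fold change (0.30 ± 0.24). It was at 31.1, 20.5 and 26.9 FPKM in vector and at 42.6, 24.1 and 32.0 in overexpression, higher within each replicate number, with overlapping group ranges and an adjusted p of 0.521 with the block. ATP5F1A, the α subunit, had the lowest (-0.21 ± 0.41), at 69.6, 79.0 and 103 in vector and 117, 36.5 and 85.1 in overexpression. Overexpression replicate 2 alone was low for it, and overexpression replicate 1 was the highest of the 6. ATP5F1B, which forms the catalytic head together with ATP5F1A, showed no such drop: 349, 253 and 315 FPKM in vector and 375, 280 and 306 in overexpression (0.07 ± 0.18). The FPKM ratio of ATP5F1B to ATP5F1A was accordingly 7.68 in overexpression replicate 2, against 3.06 to 5.01 in the other 5 libraries.

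**Figure D3:**
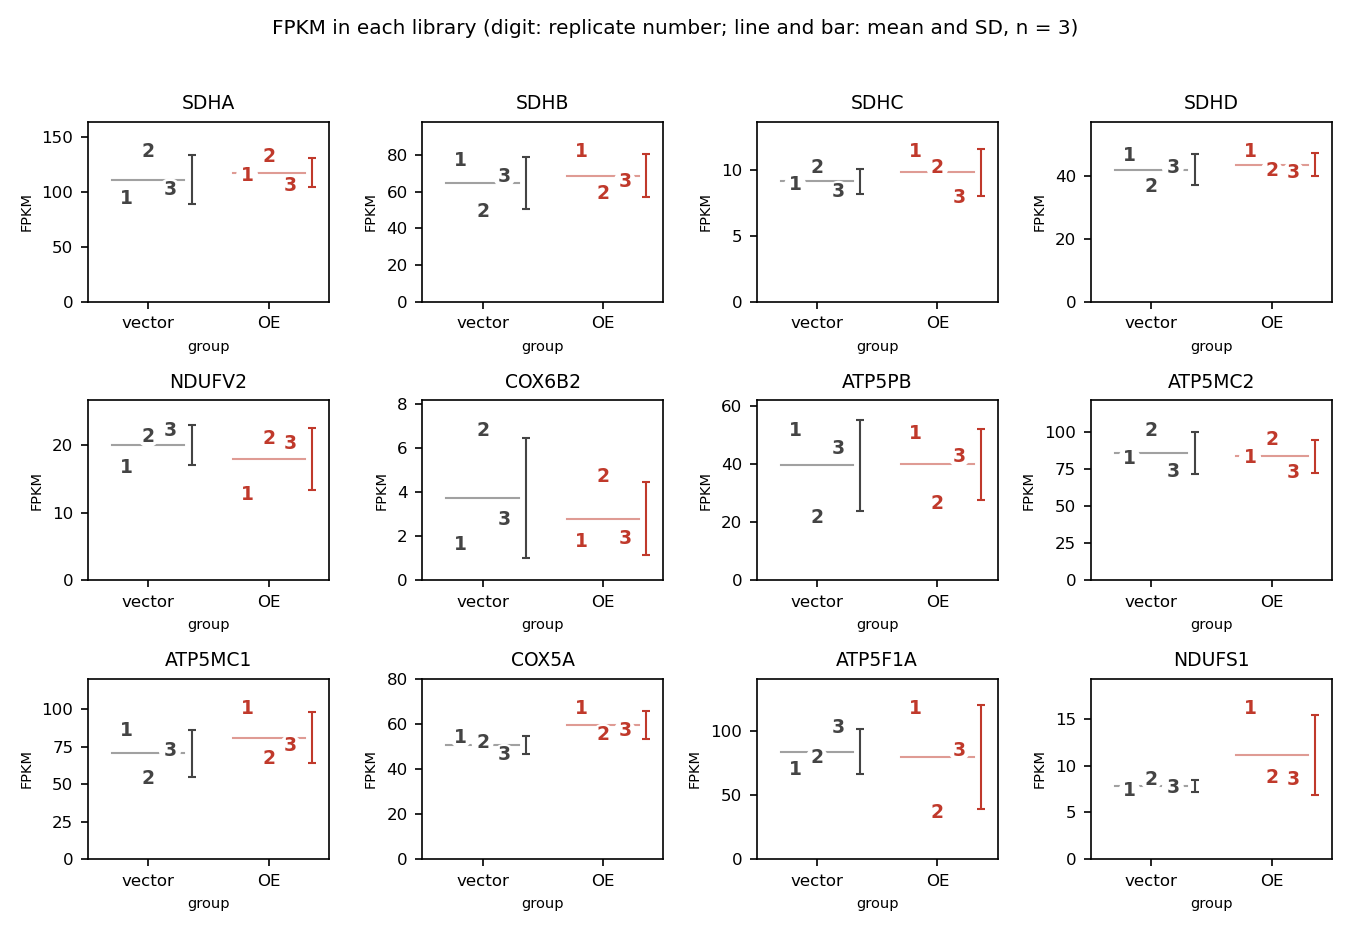
FPKM (y axis, from 0) of 12 subunit genes in the vector and overexpression (OE) groups; digits mark the replicate number of each library, the line is the group mean and the bar its SD (n = 3). The digits 2 stand apart in SDHA, SDHB, COX6B2, ATP5PB and ATP5MC2, while ATP5F1A and NDUFS1 each have a single library apart.

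By replicate number, the members were called no more often than all genes tested, but most were highest in the libraries numbered 1 on the deposited FPKM values. The F-test of replicate number called 34 of 81 members (42.0%, background 46.5%): 14 of 36 in complex I, 2 of 4 in complex II, 4 of 10 in complex III, 3 of 14 in complex IV and 11 of 17 in complex V. That count was 63 with TMM factors, 20 without the trend and 8 without the expression filter. The shares of all genes called under these settings are not given here, so the background above does not apply to them. Both libraries numbered 1 lay above the other 4 for 51 of 81 members (63.0%, background 15.4%), made up of 25 in complex I, 2 in complex II, 4 in complex III, 8 in complex IV and 12 in complex V. Both libraries numbered 2 were highest for 4 members (4.94%, background 35.9%), including SDHA, COX6B2 and ATP5MC2, and lowest for 23 (28.4%, background 25.7%). Both libraries numbered 3 were highest for 0 members (background 6.62%) and lowest for 14 (17.3%, background 4.95%). Both libraries numbered 1 were lowest for NDUFV2 and COX6B2 only (background 22.9%). These counts of highest and lowest libraries used the FPKM values as deposited. Their values under other scalings are not given here.

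Between numbers 2 and 1, 37 members were lower in number 2 (45.7%, background 20.7%) and 3 were higher (3.7%, background 29.5%), at an adjusted p under 0.05. The lower ones were 18 in complex I, 1 in complex II, 4 in complex III, 3 in complex IV and 11 in complex V. The median log2 difference, number 2 minus number 1, was -0.30 over the members against 0.09 over all genes, and it was -0.30, -0.12, -0.28, -0.20 and -0.44 in complexes I to V. Leaving out vector library 2 gave 19 lower members, and leaving out overexpression library 2 gave 15. The median was nearly the same in the vector libraries (-0.29) and the overexpression libraries (-0.32). The size, and in complexes III and IV the direction, depended on scaling: the member median was -0.50 with TMM factors, -0.21 as TPM, -0.15 with quantile scaling and -0.07 after a correction for GC content and length, which put complex III at 0.06 and complex IV at 0.09. In the same order, the count of lower members was 63, 21, 22 and 17, and that of higher members 1, 5, 6 and 8. Shares of all genes under these alternatives, or with libraries left out, are not given here. The counts therefore do not show what is particular to the members. Of the 37 lower calls, the GC and length correction kept 14. A lower call named below is that of the main fit unless said. These scalings moved the median of all genes from 0.09 to -0.09, 0.18, -0.02 and 0.07.

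Between numbers 2 and 3 the members had a median log2 difference of -0.03 against 0.05 over all genes. Here 5 members were higher in number 2 (6.17%, background 20.8%), namely ATP5MC2, COX5B, COX6B2, NDUFB1 and SDHA, and 4 were lower (4.94%, background 15.3%), namely ATP5F1D, ATP5PB, NDUFB9 and NDUFS6. The higher ones numbered 1 without vector replicate 2 or 3 and 3 without overexpression replicate 3, and the lower ones 2 without vector replicate 3, 8 without vector replicate 1 and 7 without overexpression replicate 1. The sign of that median was not fixed: it was 0.02 as TPM, 0.03 with quantile scaling, 0.06 after the GC and length correction, and -0.18 with TMM factors. The correction gave 12 higher members, and TMM factors gave 20 lower ones. For the alternatives of this paragraph too, the shares of all genes called are not given here. Between numbers 3 and 1, 0 members were called in either direction (background 0.448% higher and 0.0995% lower), although 77 of 81 were lower in number 3 on average, with a median log2 difference of -0.24 against 0.03 over all genes. The comparisons of numbers 2 and 3 with number 1 share the libraries numbered 1. With vector or overexpression replicate 2 left out, 1 member was higher and 5 were lower in number 3 than in number 1.

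**Figure D4:**
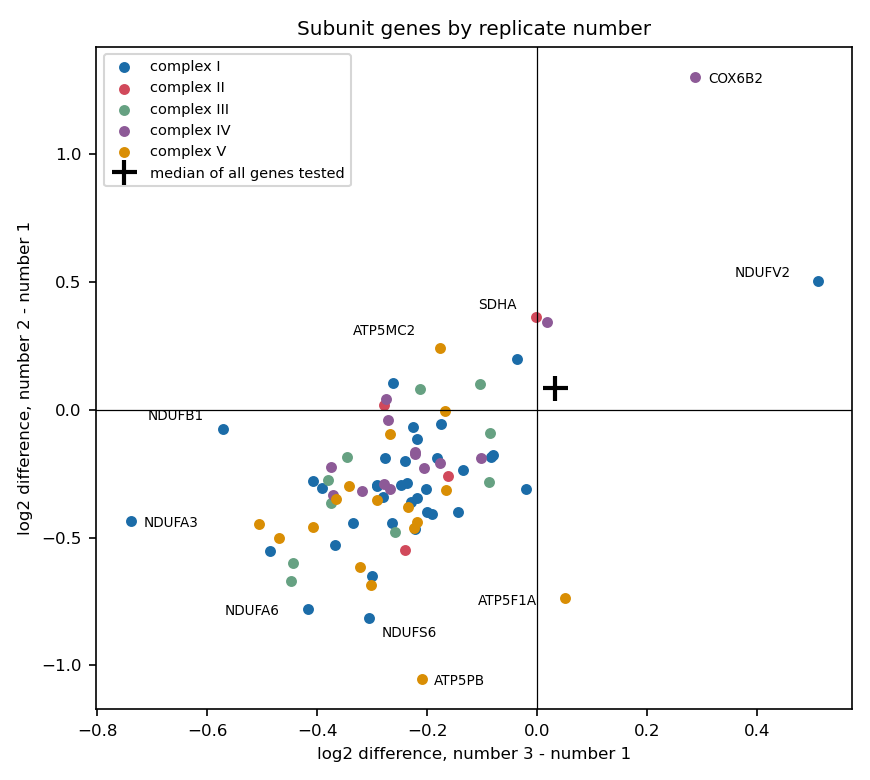
Each point is a tested subunit gene, coloured by complex; the x axis is its log2 difference of FPKM + 1 between replicate numbers 3 and 1 and the y axis that between numbers 2 and 1, which share the libraries numbered 1. Most points lie below and to the left of the cross that marks the median of all genes tested (0.03 and 0.09), with COX6B2, NDUFV2 and SDHA above it.

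In complex II, SDHA and SDHB went opposite ways between numbers 2 and 1 in the main fit. SDHA was at 94.3, 136 and 102 FPKM in vector replicates 1, 2 and 3 and at 115, 132 and 106 in the overexpression replicates, highest in both libraries numbered 2. Its log2 difference was 0.36 ± 0.12 (SE) from number 1 (limma adjusted p = 0.0276) and 0.36 ± 0.12 from number 3 (limma adjusted p = 0.0361). Neither difference was called without the expression filter (limma adjusted p = 0.0786 and 0.0999) or without the trend (limma adjusted p = 0.0506 and 0.0644). With TMM factors these were 0.16 (adjusted p = 0.223) and 0.22 (adjusted p = 0.128), and neither call was kept when vector replicate 2 was left out (adjusted p = 0.278 and 0.349). The first was also lost without vector replicate 1 (adjusted p = 0.225), and the second without vector replicate 3 (adjusted p = 0.0967) or overexpression replicate 3 (adjusted p = 0.152). SDHA has 3 named pseudogenes in the annotation, none with a row of its own in the table, so its reads may include near-identical copies.

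SDHB was at 76.8, 49.4 and 68.0 FPKM in vector and at 81.7, 58.8 and 65.7 in overexpression, lowest in both libraries numbered 2. Its log2 difference from number 1 was -0.55 ± 0.12 (limma adjusted p = 0.00355). That from number 3 was -0.31 ± 0.12 and was not called (limma adjusted p = 0.0645). Whether the SDHB call was kept after the GC and length correction is not given here. The FPKM ratio of SDHA to SDHB was therefore 2.76 and 2.24 in the libraries numbered 2 and between 1.23 and 1.61 in the other 4. A ratio within a library shows unequal change, not which of the pair changed.

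In complex I, NDUFS6, a zinc-binding subunit of the N module, had the lowest log2 difference. It was at 143, 80.03 and 110 FPKM in vector and at 143, 81.3 and 121 in overexpression, so the libraries numbered 2 were lowest in both groups. The log2 difference was -0.82 ± 0.11 from number 1 (limma adjusted p = 0.000246) and -0.51 ± 0.11 from number 3 (limma adjusted p = 0.00526). NDUFA6, an accessory subunit of the LYR family, was at 27.2, 14 and 22.5 in vector and at 31.3, 19.6 and 20.8 in overexpression, with -0.78 ± 0.14 from number 1 (limma adjusted p = 0.00168). NDUFB9, another LYR-family subunit, was at 120, 75.4 and 103 in vector and at 124, 79.4 and 95.5 in overexpression. It was lower in number 2 than in number 1 (-0.65 ± 0.11, limma adjusted p = 0.00097) and than in number 3 (-0.35 ± 0.11, limma adjusted p = 0.0308). Processing alone could undo the second call: limma adjusted p was 0.064 without the expression filter, 0.067 with quantile scaling and 0.057 without the trend. The second call was lost when any of the 4 libraries numbered 2 or 3 was left out (adjusted p from 0.0503 to 0.26).

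NDUFV2, the partner of NDUFV1 at the NADH-oxidising tip, ran against its complex. It was at 16.7, 21.2 and 22.1 FPKM in vector and at 12.7, 20.9 and 20.2 in overexpression, lowest in both libraries numbered 1. The log2 difference of number 2 from number 1 was 0.50 ± 0.13 (limma adjusted p = 0.00822). It was 0.31 with TMM factors (adjusted p = 0.0622) and 0.36 and 0.39 when overexpression library 1 or 2 was left out (adjusted p = 0.0563 and 0.11). NDUFV2 shares 771 exonic bases on its own strand with an unnamed locus. NDUFB1, a membrane-arm subunit, was at 24.6, 20.8 and 13 in vector and at 22.9, 24.3 and 18.8 in overexpression, and its difference between numbers 2 and 3 (0.50 ± 0.15, limma adjusted p = 0.0254) was 0.27 without vector replicate 3 (adjusted p = 0.307). It was also not called without vector replicate 2 (0.50), without the expression filter (limma adjusted p = 0.119) or with TMM factors (0.36, limma adjusted p = 0.0934).

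NDUFA3, a membrane-arm subunit too, had the lowest log2 difference between numbers 3 and 1. It was at 22.9, 15.3 and 10.1 FPKM in vector and at 23.5, 18.6 and 17.9 in overexpression. The difference of -0.74 ± 0.16 did not pass the test (limma adjusted p = 0.0833), and it passed when vector replicate 2 (adjusted p = 0.000194) or any one of overexpression replicates 1, 2 and 3 (adjusted p = 0.0229, 0.000202 and 0.0336) was left out. The widest gap within the gene was that of vector replicate 3, the lowest of the 6 libraries.

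In complexes III and IV, CYC1, UQCRFS1 and COX4I1 were lower in number 2 than in number 1 in the main fit. Whether these calls are among the 14 of 37 kept after the GC and length correction is not given here. That correction put the medians of both complexes above 0. CYC1 had a log2 difference of -0.67 ± 0.13 (limma adjusted p = 0.00262), UQCRFS1 one of -0.60 ± 0.12 (limma adjusted p = 0.00254) and COX4I1 one of -0.29 ± 0.10 (limma adjusted p = 0.041). The core proteins UQCRC1 (0.08 ± 0.11) and UQCRC2 (-0.09 ± 0.11) were not called, nor were COX5A (-0.17 ± 0.11) and COX5B (0.04 ± 0.11). COX6B2 stood apart from all other members. It was at 1.63, 6.82 and 2.75 FPKM in vector and at 1.79, 4.71 and 1.92 in overexpression, highest in both libraries numbered 2. Its log2 difference was 1.30 ± 0.17 from number 1 (limma adjusted p = 0.000233) and 1.01 ± 0.17 from number 3 (limma adjusted p = 0.00166), and both calls were kept under every alternative that tested it. As a share of COX6B1 and COX6B2 together, it made up 9.35% and 6.33% in the libraries numbered 2 and 2.02% to 3.49% in the others. COX6B2 shares 1178 exonic bases on its own strand with another locus, so its level is uncertain.

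In complex V, 11 of 17 tested members were lower in number 2 than in number 1 (64.7%, background 20.7%) and 0 were higher (background 29.5%). The complex V median of that difference, -0.44 in the main fit, moved under 10 alternatives and reversed under 0. Its values under other scalings are not given here. ATP5PB, the b subunit of the peripheral stalk, had the lowest difference of all members: it was at 51.6, 21.8 and 45.3 FPKM in vector and at 50.4, 26.6 and 42.7 in overexpression. It was lower in number 2 than in number 1 by a log2 difference of -1.05 ± 0.13 (limma adjusted p = 0.000152) and than in number 3 by -0.84 ± 0.13 (limma adjusted p = 0.000925), called under every alternative. ATP5PB shares 350 exonic bases with WDR77 on the opposite strand, and the counting is not stated to use strand. ATP5F1D was lower in number 2 than in number 1 (-0.68 ± 0.12, limma adjusted p = 0.00108) and ATP5F1B likewise (-0.44 ± 0.11, limma adjusted p = 0.00707). The difference of ATP5F1D from number 3 (-0.38 ± 0.12, limma adjusted p = 0.0285) was not called when any of the 4 libraries numbered 2 or 3 was left out (-0.44 to -0.32). Nor was it called without the expression filter (limma adjusted p = 0.064) or without the group term in the fit (limma adjusted p = 0.108).

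The c subunit, which forms the rotor ring, is encoded by 3 genes whose mature protein is the same, and their mRNAs did not move together. ATP5MC1 was at 85.4, 53.7 and 72.1 FPKM in vector and at 100, 67.2 and 75.6 in overexpression, lowest in both libraries numbered 2 (-0.61 ± 0.11 from number 1, limma adjusted p = 0.00166). ATP5MC2 was at 82.5, 101 and 73.4 in vector and at 83, 95.1 and 72.7 in overexpression, highest in both (0.42 ± 0.11 from number 3, limma adjusted p = 0.013; 0.24 ± 0.11 from number 1, limma adjusted p = 0.0825). The first of these was not kept without vector replicate 2 (adjusted p = 0.139), vector replicate 3 (adjusted p = 0.0747) or overexpression replicate 3 (adjusted p = 0.0535). ATP5MC3 was at 25.7, 18.8 and 17.9 in vector and at 29.7, 21.3 and 20.5 in overexpression, highest in both libraries numbered 1 (-0.44 ± 0.11 in number 2, limma adjusted p = 0.00836). The share of ATP5MC2 in the sum of the 3 was 58.2% and 51.8% in the libraries numbered 2 and 39.0% to 44.9% in the other 4. The sum itself ranged from 163 to 213 FPKM. Between groups the log2 fold changes were 0.20 ± 0.23 for ATP5MC1, -0.03 ± 0.17 for ATP5MC2 and 0.19 ± 0.21 for ATP5MC3, none of them called.

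The mitochondrially encoded subunit mRNAs, which join the members in complexes I, III, IV and V, lay the other way between groups. All 13 averaged lower in the overexpression libraries (median log2 fold change -0.19), against 5058 of all 12064 genes tested. Of the 13, 10 were lower within all 3 replicate numbers (background 11.9%), and 0 were called with or without the block. The median within numbers 1, 2 and 3 was -0.30, -0.23 and -0.05, and 3 of the 13 were higher in number 3. How these values move with single libraries left out is not given here. As a share of all summed FPKM they made up 7.15%, 10.2% and 8.76% in vector replicates 1, 2 and 3 and 5.64%, 8.43% and 8.52% in the overexpression replicates. The 89 nuclear members made up 1.60%, 1.40% and 1.36% in vector and 1.66%, 1.44% and 1.45% in overexpression. The ratio of mitochondrial to nuclear summed FPKM was 4.48, 7.26 and 6.44 in vector and 3.39, 5.85 and 5.88 in overexpression, lowest in the libraries numbered 1. Between numbers 2 and 1, 6 of the 13 mRNAs were called higher (background 29.5%), including MT-CO1 (log2 difference 0.89) and MT-CO2 (0.88). Another 3 were called lower (background 20.7%), namely MT-ND1 (-0.38), MT-ND2 (-0.52) and MT-ND3 (-0.36). The part of the mitochondrial share in the member differences was not tested.

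**Figure D5:**
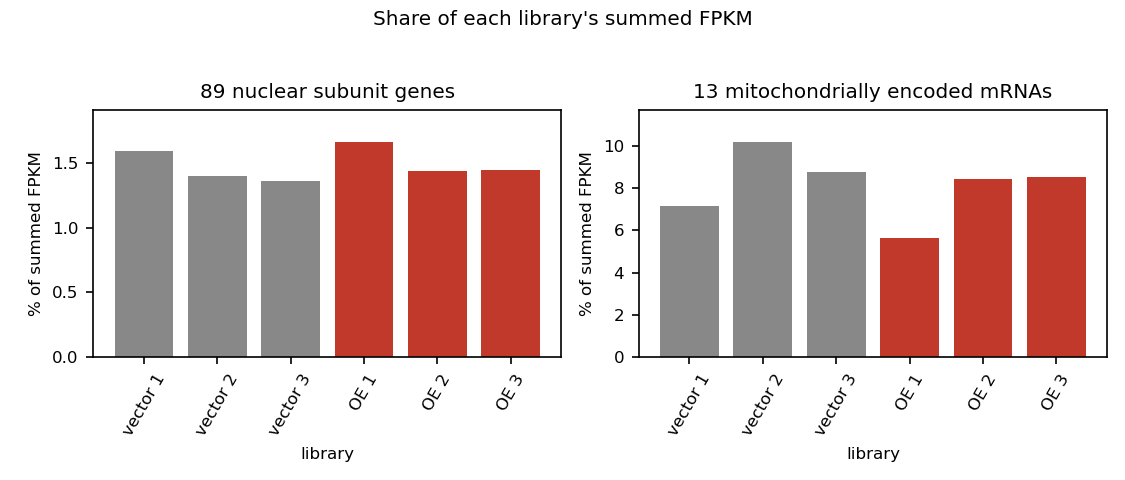
Bars (from 0) give the share of each library's summed FPKM, in percent, taken by the 89 nuclear subunit genes (left) and by the 13 mitochondrially encoded mRNAs (right); OE, circMYBL1 overexpression. The nuclear share is highest in the libraries numbered 1 (1.60% and 1.66%), where the mitochondrial share is lowest in each group (7.15% and 5.64%).

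Genes that assemble, serve or regulate the complexes gave no group call either, with or without the block. The median log2 fold change was 0.07 over 16 complex I assembly factors, 0.20 over 3 of complex II, -0.00 over 6 of complex III, 0.02 over 22 of complex IV and 0.07 over 4 of complex V, the last list including the ATP synthase inhibitor ATP5IF1. It was 0.09 over 13 electron carrier and supercomplex genes (NDUFAB1 among them), 0.06 over 13 tricarboxylic acid cycle genes and 0.04 over 10 regulators. Between numbers 2 and 1, lower calls (background 20.7%) numbered 7 of 16 complex I assembly factors, 0 of 3 of complex II, 2 of 6 of complex III, 8 of 22 of complex IV, 1 of 4 of complex V, 4 of 13 carrier genes and 4 of 13 cycle genes. The corresponding higher calls (background 29.5%) were 1, 0, 0, 2, 0, 2 and 1. CYCS, which encodes cytochrome c, had a log2 difference of -1.31, beyond that of any member, and CS, the citrate synthase gene, one of -0.63. The genes called higher were COA1 (0.36), COX19 (0.64), COA5 (0.52), HIGD2A (0.38), COQ5 (0.32) and SUCLA2 (0.60). Among the regulators 4 of 10 were lower in number 2 and 0 higher: PPRC1 (-0.92), GABPB1 (-0.82), TFAM (-0.56) and TFB2M (-1.28). NRF1 (-0.24) and YY1 (-0.01) were not called, and PPARGC1A, the coactivator of mitochondrial biogenesis, averaged 0.0935 FPKM in vector and did not pass the filter.

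The members share features that the choice by symbol did not use. Their longest transcripts had a median of 1582 nucleotides, against 3659 over all genes tested, while GC content was alike (47.9% against 48.3%). Across genes, Spearman's rho of the difference between numbers 2 and 1 with transcript length was 0.27 over 11166 genes and 0.04 over the 81 members, and that of the difference between numbers 3 and 1 was 0.42 and 0.17. Within replicate number 1 the overexpression minus vector difference had a rho of 0.53 with GC content over all genes and of 0.28 over the members. Genes of one library share its fragment lengths and base composition and are not independent, and the part of length and GC content in the member differences was not tested beyond the correction given above. On the annotation, 49 of the 89 members share exonic bases with another gene, 27 on the same strand, and 45 have named pseudogenes, none of which has a row in the table.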

How the data were processed

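The samples were 6 RNA-seq libraries of SACC-83 cells, 3 with vector and 3 with circMYBL1 overexpression. The authors deposited 1 table of FPKM values per gene and library; reads were aligned with HISAT2 to GRCh38, per the submitters' processing notes. For the counter, the annotation and all versions: not given in the sources used here. No steps of whole reads were found among low FPKM values (at most 2.17% of genes low in both libraries shared a ratio), so no count test was run. The 12064 genes that reached 1 FPKM or more in 3 or more libraries were tested with limma 3.58.1 (R 4.3.3) on log2(FPKM + 1), with a trend, 2-sided, adjusted by Benjamini-Hochberg over all of them. The pseudocount understates changes of low genes. The main group fit had group only and left the replicate number out. The SEs given with group fold changes come from it and hold the spread between numbers. A fit with the number as a block was an alternative. Replicate numbers were compared in a fit with group and number. Same-numbered libraries deviated together (Pearson r of deviations from group means 0.725, 0.881 and 0.529 for numbers 1, 2 and 3). Vector replicate 1 with overexpression replicate 3 had an r of 0.424, and vector replicate 3 with overexpression replicate 1 one of 0.412. Numbers 1 and 3 were thus less clearly apart from each other than number 2 was from both. The block takes the numbers as pairing the samples, while the labels do not say what they stand for. Positions, exons, lengths and GC content came from GENCODE 29 (GRCh38), which matched 89 of 89 members. Promoters came from RefSeq. The scripts were tested on simulated data. Named genes were fixed core subunits, the extremes of each complex between groups, the members called with the largest differences between numbers, and isoform pairs; others are named in counts of 5 or fewer or where said. Members and lists were chosen with earlier results of these data known. COQ8 had no row, and SCO2 had 2. For 1 member the values of its own are not reported here; it stays in all counts and medians.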

Additional observations from a re-analysis of the deposited data

How the results depend on the processing

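With the replicate block no member call of the group comparison changed: 0 members were called with and without it, and 1 (NDUFS1) when the libraries numbered 2 were also left out. The member median of the group fold change (0.08) ranged from -0.00556 to 0.174 when single libraries were left out, reversing without overexpression replicate 1; it was 0.0407 with quantile scaling, 0.0584 with the GC and length correction (with or without the block) and 0.107 without number 3. The F-test of number called 34 members, 25 to 30 with single libraries left out, 8 without the expression filter, 63 with TMM factors and 20 without the trend. Between numbers 2 and 1, lower members numbered 15 to 41 with single libraries left out (19 without vector replicate 2, 15 without overexpression replicate 2), 24 without the filter, 63 with TMM factors, 21 as TPM, 22 with quantile scaling and 17 with the GC and length correction; higher members numbered 2 to 3, 5 as TPM, 1 with TMM, 6 with quantile scaling and 8 with the correction. The member median was -0.298 to -0.275 with single libraries left out, -0.207 as TPM, -0.496 with TMM, -0.154 with quantile scaling and -0.0746 with the correction, which reversed complex III (0.0643) and complex IV (0.0863). Between numbers 2 and 3, higher members numbered 1 to 7 (1 without vector replicate 2 or vector replicate 3), 2 without the filter or with TMM, 8 with quantile scaling, 3 without the trend and 12 with the correction. Lower members numbered 2 to 8 (8 without vector replicate 1, 7 without overexpression replicate 1, 2 without vector replicate 3), 2 without the filter and 20 with TMM. Their median was -0.0506 to -0.0084 with single libraries left out, -0.0378 with a mean FPKM of at least 5, -0.178 with TMM, and reversed to 0.0216 as TPM, 0.0346 with quantile scaling and 0.0597 with the correction. The member median minus that of all genes reversed there to 0.0489 with quantile scaling and 0.0154 with the correction. Between numbers 3 and 1, higher members numbered 0 to 1 and lower members 0 to 5 (5 without vector or overexpression replicate 2), 1 higher with the correction and 1 lower with a mean of at least 5. Their median was -0.282 to -0.2, -0.168 with quantile scaling and -0.142 with the correction.

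Leaving out single libraries reversed the group medians of complexes II (-0.017 to 0.143), III (-0.013 to 0.183), IV (-0.014 to 0.153) and V (-0.0046 to 0.21), and the member median minus that of all genes (-0.0405 to 0.175). The group fold changes of ATP5F1A (-0.56 to 0.267), ATP5F1B (-0.0612 to 0.17), ATP5MC2 (-0.135 to 0.0935), COX4I1 (-0.0138 to 0.177), COX5B (-0.0359 to 0.161), COX6B2 (-0.589 to 0.196), CYC1 (-0.11 to 0.314), NDUFS7 (-0.0369 to 0.441), NDUFV1 (-0.0208 to 0.232), SDHA (-0.0151 to 0.249), SDHB (-0.0848 to 0.229), SDHD (-0.0355 to 0.129), UQCR10 (-0.0764 to 0.148), UQCRFS1 (-0.0635 to 0.284) also changed sign with single libraries left out. With the GC and length correction, reversals were -0.00671 for UQCR10. With quantile scaling, reversals were -0.0229 for UQCR10, -0.00306 for UQCRC2. Without number 1 of both groups, with or without the block, reversals were -0.00269 for SDHA. Without number 2 of both groups, with or without the block, reversals were 0.234 for ATP5F1A, 0.0676 for NDUFC2, -0.00658 for SDHD. Without number 3 of both groups, with or without the block, reversals were -0.0123 for UQCR10. The cause was not tested in any of these. Counts of called members under the alternatives were not set beside the shares of all genes called under the same alternative. They show how far the member counts moved, not what is particular to the members. Alternatives with a whole replicate number left out were added after seeing the data. With a library left out, the lone library of its number is assumed to vary like the others. FPKM gives no read depth, so no counting error could be set beside low values such as those of COX6B2 and NDUFA4L2.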
